A study of Mus musculus with 6 samples.

Results

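Fat synthesis and lipid droplet remodelling were followed through 10 genes, Srebf1, Pparg, Acly, Acaca, Fasn, Elovl6, Scd1, Dgat1, Pnpla3 and Hsd17b13, in the quadriceps of exercised and sedentary AR97Q mice. The genes were chosen by name from 25003 genes and transcripts tested, with the difference between the groups already known, so their values in this contrast are a description and carry no test. All 10 were on the array, with 16 probes, and each had at least 1 probe that passed the filter on dim signals. There was 1 array for each of 3 exercised and 3 sedentary mice.

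AR97Q mice are a transgenic model of spinal and bulbar muscular atrophy, a motor neuron and muscle disease of men. The promoter that drives the transgene is not given in the sources used here. All 6 mice were male, carried the transgene on a C57BL/6J background and were 9 weeks old at sampling, and no wild-type array was analysed here. The exercise group was put on a forced running wheel, turning at 5 m/min, in daily bouts of 60 min, with 5 bouts each week over 4 weeks, from the age of 5 weeks, whereas the sedentary group did not run. The comparison therefore addresses what running changed in the muscle of this transgenic model, and not how that muscle differs from a healthy one. Exercised mice were killed the day after their last bout, so effects of training and of that bout cannot be told apart.

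De novo lipogenesis turns citrate into palmitate, which is then elongated, desaturated and esterified to triglyceride for storage in lipid droplets. Liver and fat are its main sites. SREBP-1c, the product of Srebf1, is a transcription factor known for driving it. PPARγ, the product of Pparg, is a transcription factor known for driving fat cell differentiation. Skeletal muscle stores some triglyceride in droplets beside its mitochondria and also holds fat cells between its fibres, so a bulk muscle sample measures both.

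Gene positions are those of RefSeq on GRCm38.p6. Chromosome 11 holds 4 of the genes, Srebf1 at 60199084 to 60224186, Acaca at 84129635 to 84401651, Acly at 100476352 to 100528000 and Fasn at 120805958 to 120825166. Pnpla3 and Dgat1 both lie on chromosome 15, at 84167776 to 84189521 and at 76502012 to 76512021. Elovl6 lies on chromosome 3 at 129532386 to 129638495, Hsd17b13 on chromosome 5 at 103955442 to 103977388, Pparg on chromosome 6 at 115360879 to 115490404 and Scd1 on chromosome 19 at 44394450 to 44407709. The files used here do not say which exon each probe lies in.

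Promoter windows, from 250 bases before to 50 bases after a start site, were held for 8 of the 10 genes, 12 windows in all, and were searched on both strands for 3 motifs of lipogenic promoters. Srebf1, Fasn and Pnpla3 are shown as examples of genes that hold a CCAAT box, the binding motif of NF-Y, a factor known to act beside SREBP. Acly and Pparg also held one and are not shown. Srebf1 had a further match in a window at another start site, which is not shown. The lines give bases upstream of the start site, 5′ to 3′ on the strand of the gene, from RefSeq GRCm38.p6, with each CCAAT box or its reverse complement ATTGG in capitals. In Fasn the last pair of matches overlaps.
Srebf1, chr11:60210472-60210541, minus strand: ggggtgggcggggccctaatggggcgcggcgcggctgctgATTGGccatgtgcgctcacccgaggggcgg
Fasn, chr11:120824593-120824677, minus strand: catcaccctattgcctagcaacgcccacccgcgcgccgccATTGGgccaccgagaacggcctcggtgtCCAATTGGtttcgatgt
Pnpla3, chr15:84167677-84167761, plus strand: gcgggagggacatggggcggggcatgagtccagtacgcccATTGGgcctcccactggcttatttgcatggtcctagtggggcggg

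The CCAAT letters were found in 7 of the 12 windows and in 5 of the 8 genes (Acly, Fasn, Pnpla3, Pparg and Srebf1), against 37.4% of 32851 promoters of the same length. The sterol response letters TCACNCCAC were in 0 of the 12 windows and in 1.24% of all promoters, and the E-box letters CACGTG were in 0 of 12 and in 7.15%. A match is only a match of letters, and its absence says nothing of a factor's binding.

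Each value below is the log2 signal of a spot minus the 75th percentile of its array, so 0 is the 75th percentile of the probes of that mouse, and values of different probes are not set against each other. Differences are exercise minus sedentary on this log2 scale, with a standard error from limma over 3 arrays per group. The 75th percentile itself was 251 to 257 in the exercise group and 310, 371 and 384 in the sedentary group. Without scaling, the median difference of all genes was -0.45, against 0.03 with it, so every value is relative to the bulk of the genes. All 3 exercise arrays and sedentary array 1 lay in 1 strip of a single slide, and sedentary arrays 2 and 3 in the other.

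Srebf1, the gene of SREBP-1, measured 4.11, 4.0 and 4.06 in the exercise group and 3.74, 3.78 and 3.53 in the sedentary group. All 3 exercised mice lay above all 3 sedentary mice, by a mean of 0.37 ± 0.10. The order depends on scaling: the unscaled signals overlapped, at 4438, 4117 and 4172 against 4137, 5084 and 4443, and differed by -0.10. Pparg, the master regulator of fat cells, measured 1.18, 1.43 and 2.33 against 2.16, 2.40 and 1.84, a difference of -0.49 ± 0.32. Exercise mice 1 and 2 were below every sedentary mouse, but exercise mouse 3 was among the highest values, so the groups overlapped. The 2 regulators thus lay on opposite sides of 0.

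Acly, the enzyme that makes cytosolic acetyl-CoA from citrate, had 2 probes. The first, A_55_P2025954, measured 3.69, 3.44 and 3.34 in the exercise group and 3.47, 3.53 and 3.63 in the sedentary group, a difference of -0.06 ± 0.12 with full overlap. The second, A_55_P2082914, measured -3.89, -3.88 and -3.36 against -3.40, -3.32 and -3.48, a difference of -0.31 ± 0.16. Its unscaled signals were low, at 17.4 to 37.2, and its difference was 0.17 with another background correction. On the second probe exercise mice 1 and 2 were low and exercise mouse 3 was not, whereas on the first probe mouse 3 was the lowest of all.

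Acaca, acetyl-CoA carboxylase 1, which makes the malonyl-CoA that fatty acid synthase uses, had 4 probes. The brightest, A_55_P2019058, measured 2.71, 2.62 and 3.25 in the exercise group and 3.09, 2.94 and 3.03 in the sedentary group, a difference of -0.16 ± 0.18. A_52_P318040 gave -1.08, -1.28 and -0.63 against -0.86, -0.89 and -0.92, a difference of -0.11 ± 0.17. On both of these probes exercise mice 1 and 2 were the lowest 2 of the 6 and exercise mouse 3 the highest. A_55_P2121392 gave -3.45, -3.63 and -2.56 against -2.81, -3.32 and -3.12, a difference of -0.13 ± 0.30 with the same order. Its unscaled signals were low, at 20.7 to 44.3, and its difference was 0.18 with the other background correction. The fourth probe, A_55_P2084703, was well above background on 0 exercise arrays and 1 sedentary array and was not kept.

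Fasn, fatty acid synthase, measured 5.04, 5.0 and 5.79 in the exercise group and 5.84, 5.34 and 5.54 in the sedentary group, a difference of -0.30 ± 0.25. Exercise mice 1 and 2 were again the lowest of the 6, and exercise mouse 3 was second only to sedentary mouse 1. Elovl6, which elongates palmitate, measured -0.38, -1.02 and -0.79 against -0.84, -1.12 and -0.90, a difference of 0.22 ± 0.18, with exercise mouse 1 the highest of the 6, and of -0.25 without scaling. Scd1, the desaturase that makes oleate, measured 2.84, 2.83 and 3.19 against 3.20, 3.16 and 3.52, a difference of -0.34 ± 0.15. Exercise mouse 3 lay between sedentary mice 1 and 2, and the other exercised mice lay below all sedentary mice.

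Dgat1, one of the enzymes of the last step of triglyceride synthesis, measured 0.46, 0.69 and 0.98 in the exercise group and 1.07, 1.14 and 1.03 in the sedentary group. It was the only one of the 10 genes whose brightest probe was lower in every exercised mouse than in every sedentary mouse, by -0.37 ± 0.14. The gap between exercise mouse 3 and the nearest sedentary mouse was small.

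**Figure D1:**
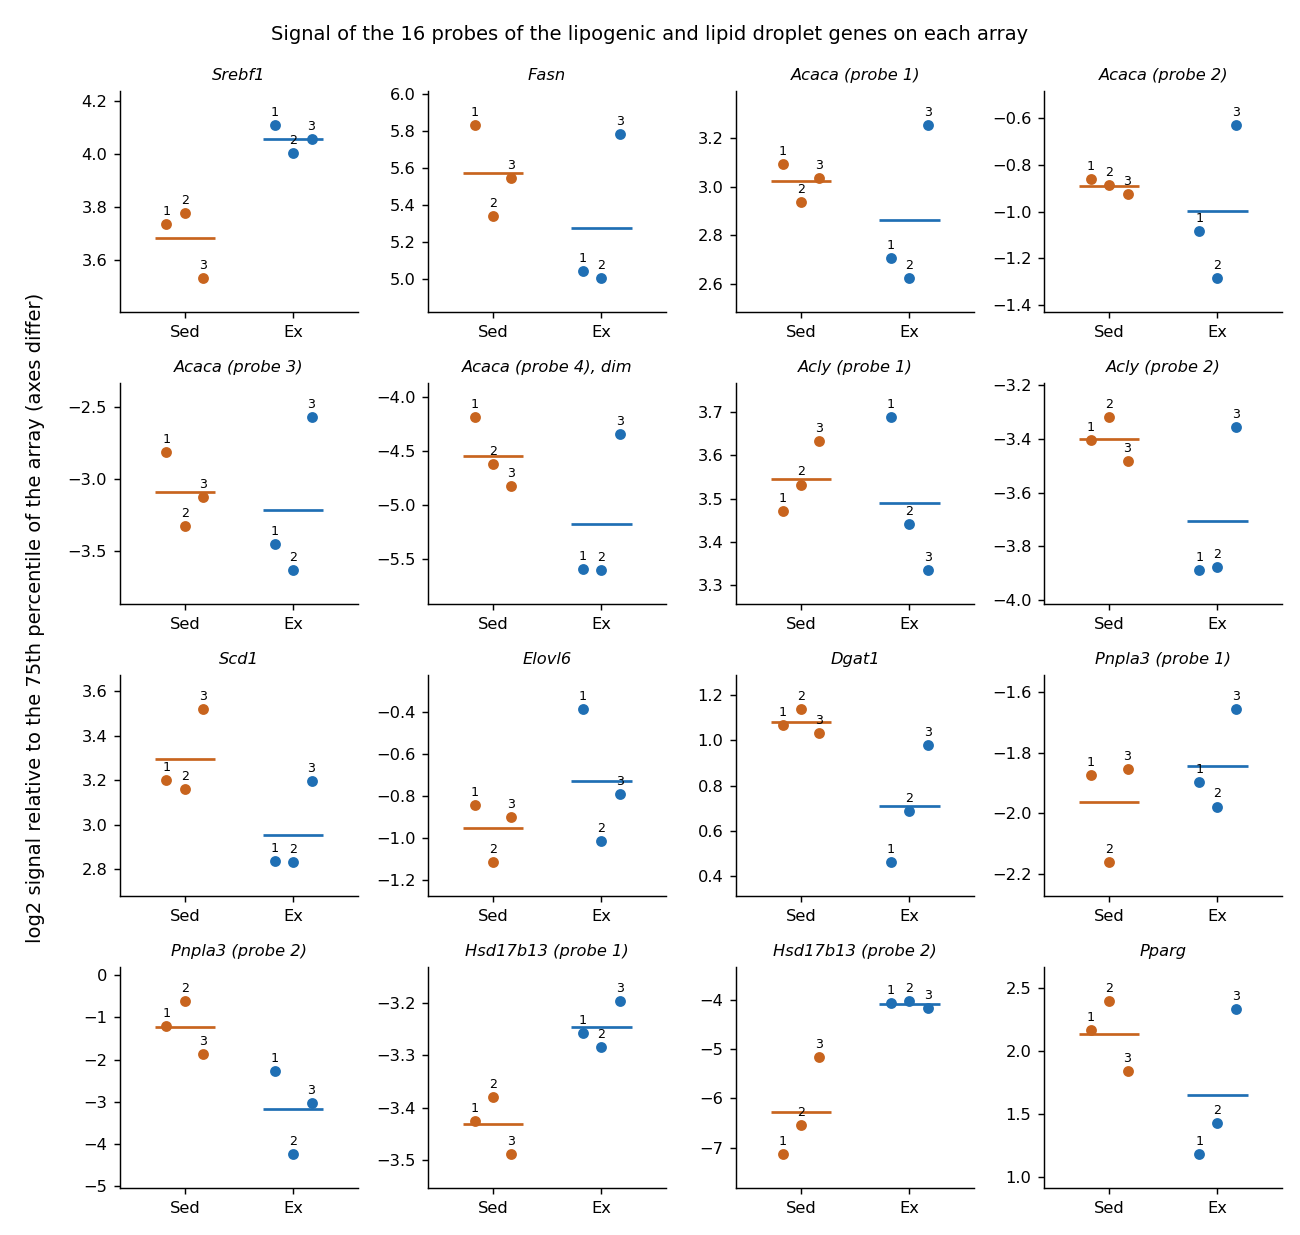
Log2 signal relative to the array's 75th percentile (vertical axes, which differ between panels) of the 16 probes in the sedentary (orange) and exercise (blue) groups. Points are single arrays numbered by mouse, lines are group means and "dim" marks the probe that was not kept, with exercise mouse 3 apart from mice 1 and 2 in Fasn, Acaca, Pparg and Acly probe 2.

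Pnpla3, a droplet enzyme of the patatin family with triglyceride hydrolase activity, had 2 kept probes that disagreed. A_55_P2025514 measured -1.90, -1.98 and -1.65 in the exercise group and -1.87, -2.16 and -1.85 in the sedentary group, a difference of 0.12 ± 0.13 with overlapping groups, and of -0.35 without scaling. A_51_P389265 measured -2.26, -4.24 and -3.02 against -1.21, -0.61 and -1.87, a difference of -1.95 ± 0.55 with every exercised mouse below every sedentary mouse. As unscaled signals that probe read 53.5, 13.6 and 30.9 against 134, 243 and 105, and its scaled means differed 3.85-fold, the widest difference of any of the kept probes measured in both groups. Its spread within the groups was also wide, and its difference ran from -2.42 without scaling to -0.86 with the other background correction.

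Hsd17b13, a droplet-bound dehydrogenase best known from the liver, had 2 kept probes that were both higher in all exercised mice. A_55_P2076555 measured -3.26, -3.28 and -3.20 against -3.43, -3.38 and -3.49, a difference of 0.19 ± 0.08 that was -0.29 without scaling. A_52_P595140 was well above background on all 3 exercise arrays and on 0 of the 3 sedentary arrays, with signals of 15.5, 15.9 and 13.9 against 2.2, 4.0 and 10.7, close to the lower end of what the scanner separated from background. With scaling, the exercise signal was at least 1.68-fold higher. This was computed against the lowest signal well above background on each sedentary array, or the probe's own signal where that was higher. The limit holds only for this processing, as the log2 difference was 0.50 under the other background correction. Of the summed signal of 6 hepatocyte markers, of which 3 were well above background, the arrays held 26.0 to 70.4 in the exercise group and 34.7 to 71.2 in the sedentary group. The sum does not show how far single markers varied between mice. Their log2 SD in the exercise and sedentary groups was 3.75 and 1.25 for Alb, 3.65 and 1.86 for Serpina1a and 1.19 and 0.55 for Cyp2e1.

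**Figure D2:**
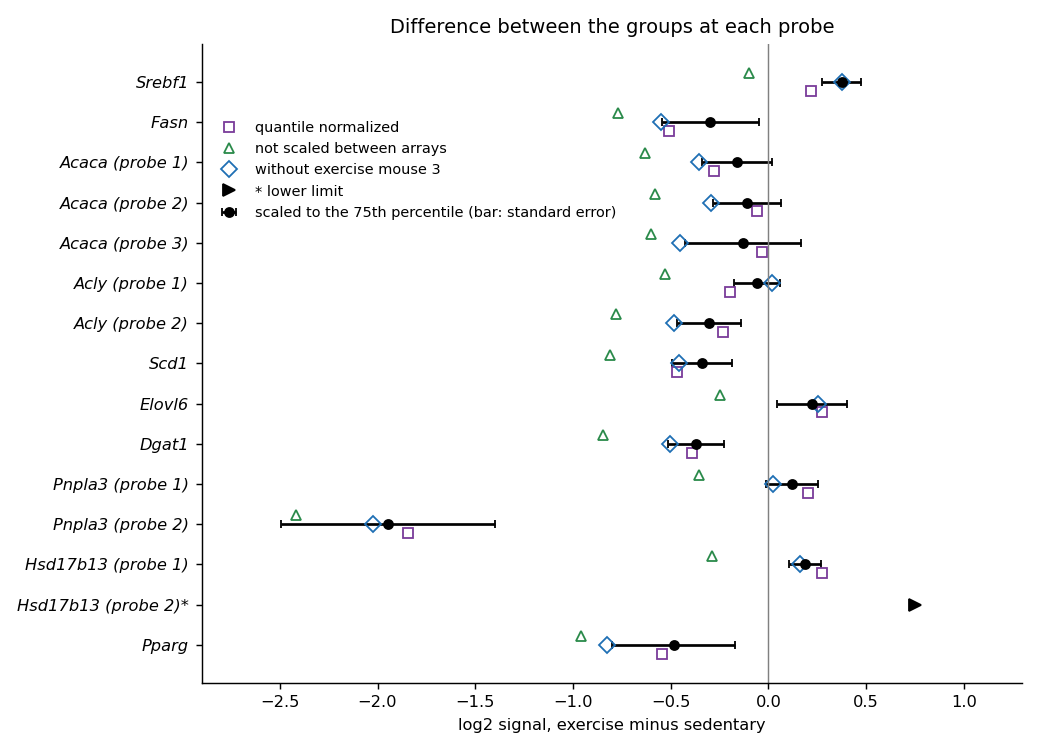
Difference in log2 signal, exercise minus sedentary (horizontal axis), for the 15 kept probes, scaled to the 75th percentile (black, bars are standard errors) and under 3 other settings (open symbols), with a lower limit for Hsd17b13 probe 2. The 2 Pnpla3 probes lie at 0.12 and -1.95, and without scaling every measured difference lies below 0.

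Across the 15 kept probes, 5 differences were above 0 and 10 below. The exercised mice all exceeded the sedentary ones in 3 probes (Srebf1 and both Hsd17b13 probes), against 24.0% of the 32726 kept probes on the array and were all below them in 2 (Dgat1 and the second Pnpla3 probe), against 17.8%. With 1 probe a gene, the differences ran from -0.49 in Pparg to 0.37 in Srebf1, with a median of -0.11 beside 0.03 for all genes. In that fit 1 of the 10 genes, Srebf1, was past the threshold of adjusted p under 0.05 as higher, where 11.5% of all genes were, and 0 as lower, where 6.16% were. At an unadjusted p under 0.05 limma gave 1 gene higher and 1 lower, where 21.6% and 15.4% of all genes were, and with quantile normalization, or without any 1 of the 6 arrays, 0 of the 10 were past the adjusted threshold. The study's definition of a DEG, which adds a minimum absolute log2 fold change of 1, was met by 0 of the 10, against 1.72% of all genes upregulated and 1.06% downregulated. These counts take the brightest probe of each gene. The study itself listed Hsd17b13 among its upregulated and Pnpla3 among its downregulated DEGs, the directions of their second probes here. It also reported more downregulated than upregulated DEGs, the reverse of the shares of all genes here. That balance depends on scaling, as the deposited table without further scaling gave 237 upregulated and 553 downregulated DEGs. With every probe counted by itself, 1 of the 15 kept probes met the definition as upregulated and 0 as downregulated, against 1.57% and 0.987% of all kept probes. That 1 was the second of Hsd17b13, which passed the filter on dim signals only through the exercise arrays. The filter thus helped to fix both its call and its place among the probes without overlap. The probe of Srebf1 no longer passed the adjusted threshold. Since the genes were chosen with this contrast known, nothing is read from these counts.

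The values of the exercise group were more dispersed than those of the sedentary group in these genes. The median standard deviation of the 15 kept probes was 0.30 among exercised and 0.14 among sedentary mice, against 0.14 and 0.15 over all kept probes. In 7 of the 15 (Fasn, Scd1, Pparg, 3 probes of Acaca and the second of Acly, 46.7%) exercise mice 1 and 2 lay below all sedentary mice while exercise mouse 3 did not, an order seen in 5.60% of all kept probes. Exercise mouse 3 was the highest of the exercise group in 10 of the 15 (66.7%), against 33.1% of all kept probes. Probes of 1 gene share a target, so these are not 15 independent cases. The dimmest kept Acaca probe and the second Acly probe had low signals, and both changed sign under the other background correction. Exercise mouse 3 was singled out with these values known, so the shares describe the order and do not test it. Single mice moved these differences in both directions. With each mouse left out in turn, that of Pparg ran from -0.83 without exercise mouse 3 to -0.25 without exercise mouse 1. That of Fasn ran from -0.55 without exercise mouse 3 to -0.16 without exercise mouse 2 or sedentary mouse 1, and that of the brightest Acaca probe from -0.36 to -0.04 without exercise mice 3 and 2 in turn. Scd1 ran from -0.46 without exercise mouse 3 to -0.23 without sedentary mouse 3, Dgat1 from -0.51 without exercise mouse 3 to -0.25 without exercise mouse 1, and Srebf1 from 0.30 to 0.42, while the first Acly probe turned to 0.02 without exercise mouse 3.

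Adipocyte markers often had the same order of mice, with exercise mice 1 and 2 below all sedentary mice and exercise mouse 3 not in 6 of 12. Adipoq, the fat cell hormone adiponectin, measured 2.71, 3.08 and 4.51 in the exercise group and 4.24, 4.65 and 4.28 in the sedentary group, with exercise mice 1 and 2 far below the other 4. Plin1, which coats the droplets of fat cells, measured 0.09, 0.65 and 1.87 against 1.69, 2.14 and 1.55, and Cidec, which enlarges those droplets, 3.29, 4.22 and 5.71 against 5.55, 5.72 and 4.94. Cfd, the adipocyte protease adipsin, measured 6.78, 7.30 and 8.49 against 8.27, 8.23 and 7.81, and Fabp4, a fatty acid carrier, 6.69, 7.06 and 7.38 against 7.16, 7.18 and 6.98. All 12 markers of the list were well above background on all 6 arrays.

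The summed scaled signal of the 12 adipocyte markers was 286, 383 and 705 in the exercise group and 612, 613 and 482 in the sedentary group. Exercise mouse 3 was the highest exercised mouse in 11 of the 12 markers, the median marker differed by -0.79, and 0 of the 12 fell at adjusted p under 0.05 by limma, with 2 at an unadjusted p under 0.05. Of the 12, 2 had differences above 0, Lpl, the lipase that frees fatty acids from circulating lipoproteins, at 0.02 and Lep. Lep, the hormone leptin, measured -1.16, -1.24 and -1.08 against -1.58, -1.47 and -1.49, and was higher in the exercise group with scaling (0.35, limma adjusted p = 0.042) but not without it (-0.12). Pparg, Fasn, Scd1, Acly and Dgat1 are themselves expressed in fat cells. In bulk tissue, fewer fat cells and less RNA per fat cell cannot be told apart, and the part of fat cells in the differences above was not tested.

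**Figure D3:**
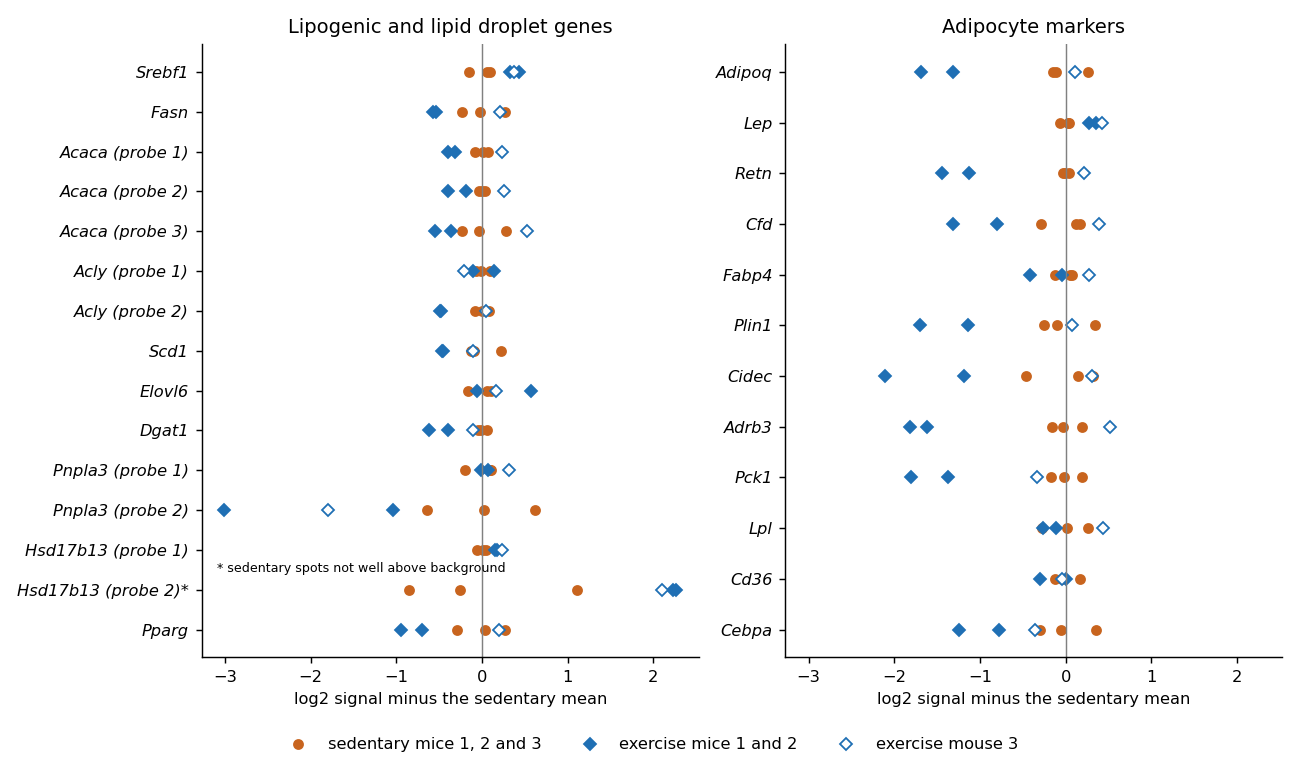
Log2 signal of each array minus the sedentary mean (horizontal axis) for the 15 kept probes of the lipogenic and droplet genes (left) and 12 adipocyte markers (right), with sedentary mice in orange, exercise mice 1 and 2 as filled and exercise mouse 3 as open blue diamonds (asterisk, a probe whose sedentary spots were not well above background). Exercise mouse 3 lies to the right of mice 1 and 2 in 10 of the 15 probes and 11 of the 12 markers.

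The summed signal of 10 skeletal muscle fibre markers was 5781 to 6416 in the exercise group and 3137 to 4156 in the sedentary group, with no overlap. Srebf1 split the groups in the same way, as did 24.0% of all kept probes. The median difference of the 10 fibre markers was 0.82, and 0.23 after quantile normalization. The sums of 8 macrophage markers (69.9 to 80.0 against 67.6 to 76.3) and 8 fibroblast and progenitor markers (664 to 739 against 629 to 796) overlapped. The part of fibre content in the differences was not tested.

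Within the strip that holds both groups, against sedentary mouse 1 alone, the differences were 0.32 for Srebf1, -0.52 for Pparg, -0.56 for Fasn, -0.23 for the brightest Acaca probe, -0.25 for Scd1 and -0.36 for Dgat1. Those of Pnpla3 were 0.03 and -1.96, and that of the first Hsd17b13 probe 0.18. These kept the sign of the pooled values, whereas the first Acly probe turned to 0.02, and 1 sedentary array gives no spread of its own.

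The rest of the pathway was taken as 68 genes in 4 lists by function, of which 64 were tested and 10 passed the threshold, 6 higher and 4 lower, which is near the 11.5% and 6.16% of all genes. DEGs were 0, against 1.72% and 1.06% of all genes. As many differences were above 0 as below (32 and 32), and their median was -0.003 beside 0.03 for all genes. No list had more than 2 genes called in 1 direction, and the 10 comprised 1 gene of fatty acid synthesis, 4 of elongation, 3 of triglyceride synthesis and 2 of droplet formation. These calls are fragile: leaving out any array other than sedentary mouse 1 left 0 of the 64 past the threshold, with 12 to 18 at an unadjusted p under 0.05. Of the 10 genes, Agpat1 changed sign under 1 of 5 other scalings or background corrections, and the other 9 under 0.

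Among 17 other genes of fatty acid synthesis and its regulation, 1 was higher and 0 were lower, at a median of 0.03, and limma gave 1 gene in each direction at an unadjusted p under 0.05. Me1, malic enzyme, which makes cytosolic NADPH, was upregulated at 5.25 ± 0.05 against 4.57 ± 0.20 (mean ± SD, difference 0.68 ± 0.12 SE, limma adjusted p = 0.024), and its second probe differed by 0.62. The regulators were not past the threshold: Mlxipl, the carbohydrate-sensing factor ChREBP, differed by 0.12, Srebf2, the sterol factor beside Srebf1, by -0.52 (adjusted p = 0.143), and Insig1, which retains SREBPs in the endoplasmic reticulum, by 0.05. Thrsp, a lipogenic cofactor, differed by -0.06. Acacb, the carboxylase that sits at the mitochondrion and restrains fat oxidation, differed by -0.01 at its brightest probe and by 0.49 at its second.

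Of the elongation and desaturation genes 14 of 17 were tested (Elovl2, Elovl3 and Elovl4 were too dim), with 2 higher, 2 lower and a median of -0.23. Tecr, the reductase of the elongation cycle, measured 5.07 ± 0.06 against 4.13 ± 0.27 and rose by 0.93 ± 0.15 (limma adjusted p = 0.023). Hacd1, the muscle-enriched dehydratase of the same cycle, rose by 0.69 ± 0.17 (limma adjusted p = 0.043). In contrast Hsd17b12, its ketoreductase, was downregulated, with a difference of -0.53 ± 0.13 (limma adjusted p = 0.039), as was the elongase Elovl7 at -0.98 ± 0.14 (limma adjusted p = 0.023). The Elovl7 probe was dim, and its difference was -0.13 under the other background correction. Members of 1 enzymatic cycle therefore passed the test in opposite directions. Scd2 and Elovl5 differed by 0.15 and -0.17 and did not pass.

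Triglyceride synthesis had 14 of 15 genes tested, without Mogat2, with 1 higher, 2 lower and a median of -0.04. The phosphatidate phosphatases Lpin2 and Lpin3 fell, by 0.68 ± 0.13 (limma adjusted p = 0.027) and 0.80 ± 0.10 (limma adjusted p = 0.023), and their further probes had the same sign. Lpin1, the main muscle form, did not pass, although its 3 exercise values lay above its 3 sedentary ones (0.29, adjusted p = 0.068). Agpat1, an acyltransferase that makes phosphatidate, rose by 0.42 ± 0.09 (limma adjusted p = 0.031), though not without scaling (-0.05). Dgat2, which shares its reaction with Dgat1, differed by -0.20 and Gpam, the first acyltransferase, by 0.30 with -0.15 at its second probe, and neither passed.

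All 19 genes of the droplet coat and lipolysis list were tested, with 2 higher, 0 lower and a median of 0.04. The 2 were Fitm1 and Fitm2, membrane proteins that release new droplets from the endoplasmic reticulum, Fitm1 being the form of skeletal muscle. Fitm1 measured 5.84 ± 0.06 against 5.14 ± 0.15 and rose by 0.70 ± 0.10, and Fitm2 rose by 0.57 ± 0.09 (both limma adjusted p = 0.023). The droplet coat genes Plin2 (-0.12) and Plin5 (0.41), the lipases Pnpla2 (0.04) and Lipe (-0.58) and Hsd17b11 (-0.28), a relative of Hsd17b13, did not pass the test.

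**Figure D4:**
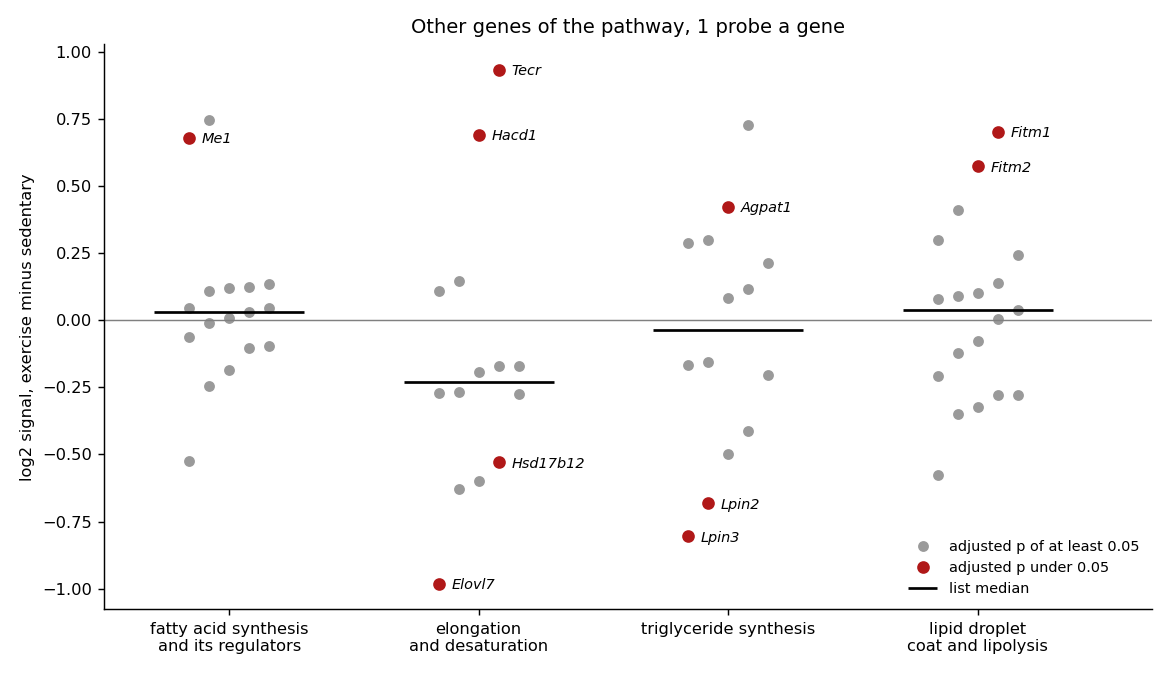
Difference in log2 signal, exercise minus sedentary (vertical axis), of the 64 other pathway genes tested, 1 point a gene, by list, with the 10 genes at adjusted p under 0.05 in red and named. Bars are list medians, which lie between -0.23 and 0.04.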

How the data were processed

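Quadriceps RNA of 3 exercised and 3 sedentary mice, grouped by their labels, was labelled with a single dye and hybridized to Agilent SurePrint G3 mouse arrays. The authors deposited scanner files from Feature Extraction 12.1.0.3, whose processed signal is an intensity on a linear scale after background subtraction, and a table of intensity values that equals the processed signal times 1 factor per array. Their methods name iDEP, where a DEG needs an FDR under 0.05 and a log2 fold change of 1 or more in size, and the sources used here name no scaling between arrays.

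Here, log2 of the deposited intensity minus each array's 75th percentile was used. Control spots (3671 of 62976) and outlier spots were left out, as were 22 probes with missing values. Of 56605 probes, 32726 were well above background on 3 or more arrays and were kept, and 54.6 to 59.9% of probes were well above background on an array, with 0 saturated spots. The number of arrays limits the precision. Probes were named by transcript accession through a RefSeq table (34574 matched). For genes with several probes, the one with the highest mean was tested, and every probe of the 10 genes is shown. The exercise and sedentary groups were compared in R 4.3.3 by the lmFit and eBayes functions of limma 3.58.1 (two-sided, with Benjamini-Hochberg adjustment across 25003 genes and transcripts), after the script was tested on simulated data.

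The 10 genes and all lists were chosen with earlier results of these data known. Named from the pathway lists were 15 set genes and up to 6 genes per list. The latter had the largest change among genes past the threshold whose groups do not overlap. From the markers, 6 set genes of the adipocyte list were named. Outside this rule, Lpl was named for its difference above 0, and Alb, Serpina1a and Cyp2e1 as the hepatocyte markers tested. The marker lists were of adipocytes, skeletal muscle fibres, macrophages, fibroblasts and progenitors, and hepatocytes. Alternatives were other scalings, normexp background correction (offset 50), other dim-probe filters, the mean of a gene's probes, every probe counted by itself, the deposited table, each array left out, the replicate number or slide strip as a block, comparison within a strip, and eBayes with trend and robust. One item of the model's description is not reported here.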

Additional observations from a re-analysis of the deposited data

How the results depend on the processing

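With other settings, the counts of genes and transcripts higher and lower (2868 and 1539), of DEGs upregulated and downregulated (429 and 265), of pathway list genes higher and lower (6 and 4) and of the 10 chosen genes higher and lower (1 and 0) moved by over 1.5 times as follows, and those not given stayed within that range. Quantile normalization gave 1867 higher and 0 chosen genes higher, and subtraction of the array median gave 872 lower and 0 chosen genes higher. Without scaling there were 617 higher, 11281 lower, 127 and 2194 DEGs, 1 list gene higher, 38 lower, 0 chosen genes higher and 6 lower, as the median of all genes sat at -0.45. The deposited table, log2 without further scaling, gave 1172 higher, 3203 lower, 237 and 553 DEGs, 8 list genes lower and 0 chosen genes higher. Normexp gave 6249 higher, 192 and 59 DEGs, 8 list genes lower, and 2 chosen genes higher and 1 lower. Without the dim-probe filter there were 9737 higher, 714 upregulated DEGs and 7 list genes lower, and with the filter on all arrays 156 downregulated DEGs. The mean of a gene's probes gave 2 list genes lower, and eBayes with trend and robust gave 7. The cause of these shifts was not tested.

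Leaving out 1 array at a time gave 0 to 3468 genes higher, 0 to 2063 lower, 0 to 715 and 0 to 481 DEGs, 0 to 7 list genes higher, 0 to 4 lower and 0 to 0 chosen genes higher. The omission of any of 5 arrays left none higher, with 6679 to 8146 genes at an unadjusted p under 0.05, and only without sedentary mouse 1 were there over 1 call. With the replicate block every count was 0 (8584 at an unadjusted p under 0.05). The replicate numbers pair no mice in the labels, and deviations of same-numbered arrays correlated at 0.02, 0.08 and 0.04. With the strip as a block there were 0 genes higher, 3 lower, 0 and 3 DEGs, 0 list genes and 0 chosen genes (4829 unadjusted), and within the strip every count was 0 (4062 unadjusted).

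Of 270 values of the 16 probes under an alternative, 243 moved by less than 1 SD of the probe within its groups. This tally is no measure of robustness. The other dim-probe filters, the replicate block and eBayes with trend and robust cannot move the difference of a probe. The strip block and the comparison within a strip gave the same differences, so they count double. The differences of Fasn, Scd1, Pparg, Dgat1, the brightest Acaca probe and the second Pnpla3 probe were below 0 under every alternative run, and that of Srebf1 was above 0 under all but the unscaled one. Those of the first Acly probe, 3 Acaca probes and the second Acly probe changed sign under at least 1 alternative, as did Elovl6 and the first probes of Pnpla3 and Hsd17b13, which were below 0 without scaling. The number of mice, 3 a group, limits every comparison.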
